A study of Mus musculus with 9 samples.

Results

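G2/M and mitosis genes encode the proteins with which a dividing cell enters mitosis, builds the spindle, attaches and parts its chromosomes and splits in 2. The 44 genes were chosen by name, from what their products are known to do, but with earlier results of these data known. Of them, 43 were measured among 22180 genes tested. Each measured member was read by its 1 probe set with a single gene symbol. Cyclin B1 (Ccnb1) was not analysed here.

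All arrays came from the mouse cell line labelled hMLKL1-181-2Fv-NIH3T3, NIH3T3 fibroblasts expressing a stretch of human MLKL joined to Fv domains. MLKL is the protein that breaches the cell membrane when a cell dies by necroptosis. B/B, a small dimerizer, brings Fv domains together. There were 3 groups of 3 arrays: cells given the control treatment, AnnV+ (annexin V-positive) cells sorted after 1 h in 50 nM B/B, and such cells after a further washout of 6 h. The design text sets the washout at 3000 nM and names no agent for it. Annexin V binds phosphatidylserine on the cell surface. The labels do not say whether the line is 1 clone, whether control cells were sorted or at what time they were harvested. B/B, sorting and time of harvest therefore cannot be told apart in the comparisons with control. In both comparisons of the washout group, the washout with its 3000 nM and the further 6 h also cannot be told apart. The labels also do not say whether arrays of a group came from separate cultures, so the p-values measure the spread between these arrays, which may be technical.

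Transcripts of these genes are scarce in resting cells and in G1, accumulate through S phase and peak in G2 and mitosis, after which the products of many are destroyed. In resting and early G1 cells a repressor complex of p130 and the MuvB proteins (DREAM) holds their promoters silent, and later B-MYB and FOXM1 join MuvB to activate them. MuvB contacts a short element called the cell cycle genes homology region (CHR), and the factor NF-Y binds CCAAT boxes close upstream. In cells that cycle out of phase, as an untreated culture does, a lower level in bulk RNA cannot tell fewer cells in G2 and mitosis from less RNA in each cell.

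RefSeq promoter windows, 250 bases before to 50 bases after a transcription start in mouse assembly GRCm38.p6, were held for 36 of the 44 genes. A CHR, searched as TTTGAA or TTCGAA on both strands, lay in the window of 27 of the 36 (75.0%), against 21.7% of 27025 genes in the promoter table. The NF-Y box CCAAT, on either strand, lay in 26 (72.2%), against 41.1% of all, and both elements lay in 23 (63.9%), against 8.61% of all. An E2F core, searched as TTTCCCGC, TTTCGCGC, TTTGCCGC or TTTGGCGC on both strands, lay in 1 of 36 (2.78%), against 2.60% of all. No CHR match of a member overlapped a match to another of these motifs. This held for the 36 CHR matches in 1 window per gene and for those in the other windows of 3 genes that had more than 1. Of these promoters 7 are shown from 130 bases before to 20 bases after the start, 5′ to 3′, with CHR and NF-Y matches in capitals. The first 4 belong to genes whose transcripts fell most after washout among members with both elements in that stretch, and the last 3 to genes with the smallest differences there.
Ccnb2, chr9:70421535-70421684, minus strand: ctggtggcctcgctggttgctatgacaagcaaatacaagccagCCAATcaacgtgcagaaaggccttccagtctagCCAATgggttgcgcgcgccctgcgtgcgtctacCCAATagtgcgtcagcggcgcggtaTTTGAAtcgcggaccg
Hmmr, chr11:40733418-40733567, minus strand: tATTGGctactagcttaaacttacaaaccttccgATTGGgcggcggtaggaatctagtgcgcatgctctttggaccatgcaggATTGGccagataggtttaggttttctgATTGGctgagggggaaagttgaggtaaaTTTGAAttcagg
Racgap1, chr15:99651637-99651786, minus strand: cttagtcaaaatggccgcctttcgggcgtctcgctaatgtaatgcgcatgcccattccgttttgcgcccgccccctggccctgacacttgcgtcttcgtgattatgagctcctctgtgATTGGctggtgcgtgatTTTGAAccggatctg
Ckap2, chr8:22185800-22185949, minus strand: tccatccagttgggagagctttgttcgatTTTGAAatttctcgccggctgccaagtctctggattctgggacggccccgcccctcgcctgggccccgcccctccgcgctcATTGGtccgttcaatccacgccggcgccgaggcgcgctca
Ttk, chr9:83834559-83834708, plus strand: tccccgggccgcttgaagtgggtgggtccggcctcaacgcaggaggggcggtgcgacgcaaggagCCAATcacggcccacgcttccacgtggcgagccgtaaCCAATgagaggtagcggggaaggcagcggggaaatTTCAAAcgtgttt
Top2a, chr11:99024170-99024319, minus strand: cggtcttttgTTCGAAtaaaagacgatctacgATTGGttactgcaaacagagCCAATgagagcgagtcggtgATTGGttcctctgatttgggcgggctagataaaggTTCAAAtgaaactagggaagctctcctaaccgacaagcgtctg
Kif23, chr9:61946780-61946929, minus strand: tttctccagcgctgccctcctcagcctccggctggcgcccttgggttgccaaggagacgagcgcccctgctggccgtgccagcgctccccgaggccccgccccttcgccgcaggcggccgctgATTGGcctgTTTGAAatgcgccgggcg
In Ccnb2 the boxes began 87, 54 and 21 bases before the start and the CHR at base 5 after it. The promoters of Ttk and Kif23, whose transcripts did not pass the threshold, held the same elements in the same order, with the CHR at bases 8 and 3 after the start. A match is a description of letters and not a measured binding site.

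**Figure D1:**
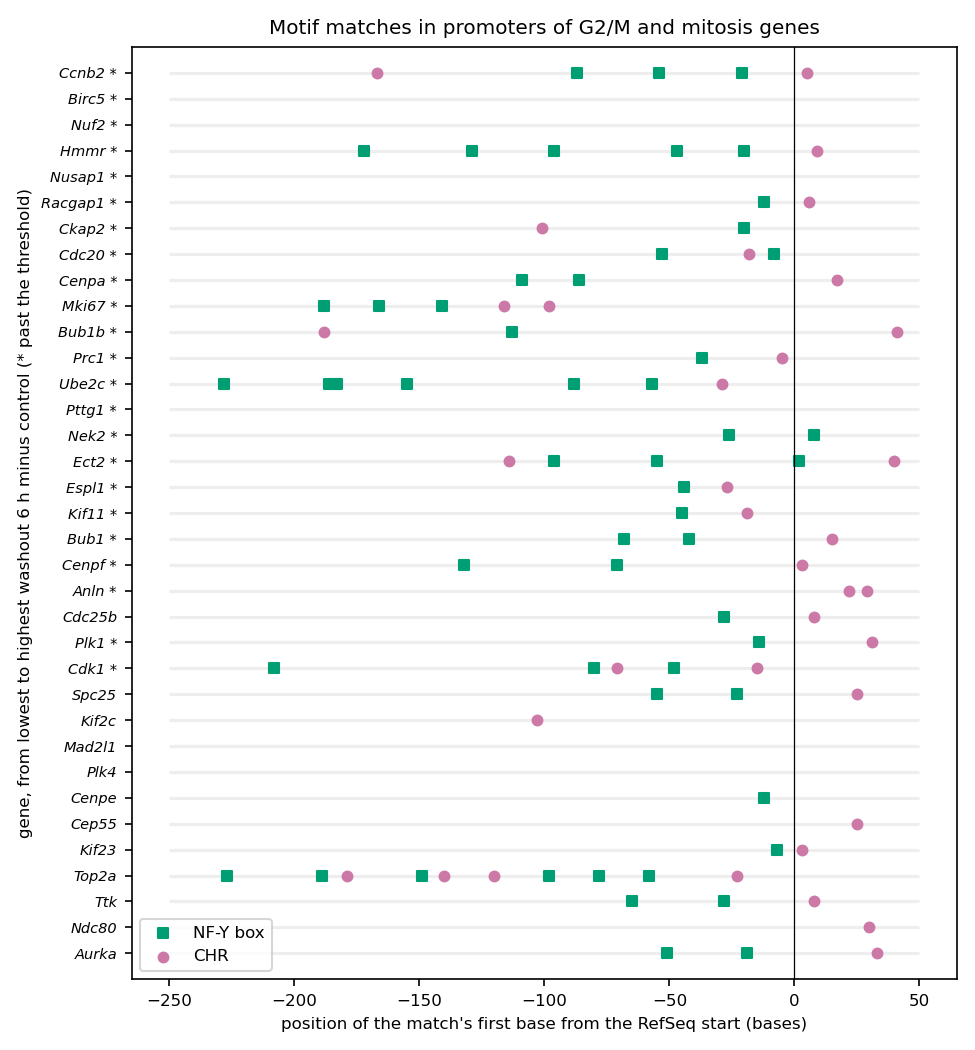
Positions of NF-Y box (squares) and CHR (circles) matches from the RefSeq start, in bases, in 1 promoter window for each of 35 measured members, ordered from the lowest to the highest log2 difference between washout and control. Stars mark genes past the threshold against control, and matched and unmatched promoters occur in both parts of the order.

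Of the 23 members with a promoter that fell after washout, 18 (78.3%) had a CHR, and of the 12 measured members with a promoter that did not, 9 (75.0%) had one. The NF-Y box lay in 18 of the 23 (78.3%) and in 7 of the 12 (58.3%). Both elements lay in 17 of the 23 (73.9%) and in 6 of the 12 (50.0%). The median log2 difference between washout and control was -0.22 over the 27 measured members with a CHR in the window and -0.38 over the 8 without. The members without either element included Birc5, Nuf2 and Nusap1, which fell, and Plk4 and Mad2l1, which did not pass the threshold. These shares and medians carry no test.

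The values are log2 probe set levels, where base 2 was inferred from their range, and a difference of 1 on this scale is 2-fold. Array medians lay between 5.14 and 5.23, and the correlation across genes was 0.998 to 0.999 within groups and 0.990 to 0.998 between them. Precision is limited by having 3 arrays in a group. Of 10 fibroblast markers, Fap and Postn lay in the lowest 30% of genes by mean. Vim and Fn1 stood at 12.93 and 11.93 in control and did not pass the threshold in any comparison. Against control after washout 5 of the 10 fell, Pdgfrb by 1.36, Col1a2 by 0.99, Col1a1 by 0.79, Col3a1 by 0.56 and Thy1 by 0.44, and Pdgfra rose by 0.68 (log2). The log2 of the sum of the 10 linear values, to which Vim gave more than any other, was 14.03 to 14.07 in control, 14.08 to 14.09 at 1 h and 13.91 to 13.92 after washout. Of 8 leukocyte markers, 5, including the pan-leukocyte gene Ptprc, lay in the lowest 30%. The log2 of the sum of these 8 linear values was 9.10 to 9.17, 9.53 to 9.67 and 9.87 to 9.93 in the same order. At 1 h Cd14, Cd68 and Adgre1 rose, and after washout Cd14 alone rose against control, by 1.47, while Ptprc and Lyz2 fell by 0.19 and 0.30 (log2). Of 5 epithelial markers 1, Epcam, and of 4 endothelial markers 1, Tek, lay in the lowest 30%. After washout the epithelial marker Cdh1 fell by 0.20 and the endothelial marker Cdh5 rose by 0.28 (log2). The part of these markers in the results was not tested.

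After washout the mitotic programme stood below control. Of 43 measured members, 30 fell and 0 rose past the threshold, a Benjamini-Hochberg adjusted p under 0.05 over all genes in limma. By the same rule 11.7% of all genes fell and 14.5% rose. Among the 7021 genes whose mean probe set value was at or above that of the lowest member, 27.3% fell and 28.8% rose. The median member differed by -0.29 (log2), against 0.00 over all genes and over those 7021. The 13 members that did not pass were Cdc25b, Tpx2, Plk4, Kif2c, Aurka, Mad2l1, Ttk, Cenpe, Ndc80, Spc25, Kif23, Cep55 and Top2a. In 36 members (83.7%) every washout array lay below every control array, as in 17.8% of all genes, and in 1, Aurka, every washout array lay above, as in 20.2%. Among the 7021 genes 36.5% lay below in this way, and 2616 lay above. Of 43 members, 7 stood at least 1.5-fold lower, as did 434 of all 22180 genes and 297 of the 7021. The falls were modest in size, and the largest was that of Spc24, 1.85-fold. Each of the 3 washout arrays showed it, with medians over members of -0.28, -0.30 and -0.29 from the control mean and 42, 39 and 42 of 43 members below that mean.

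**Figure D2:**
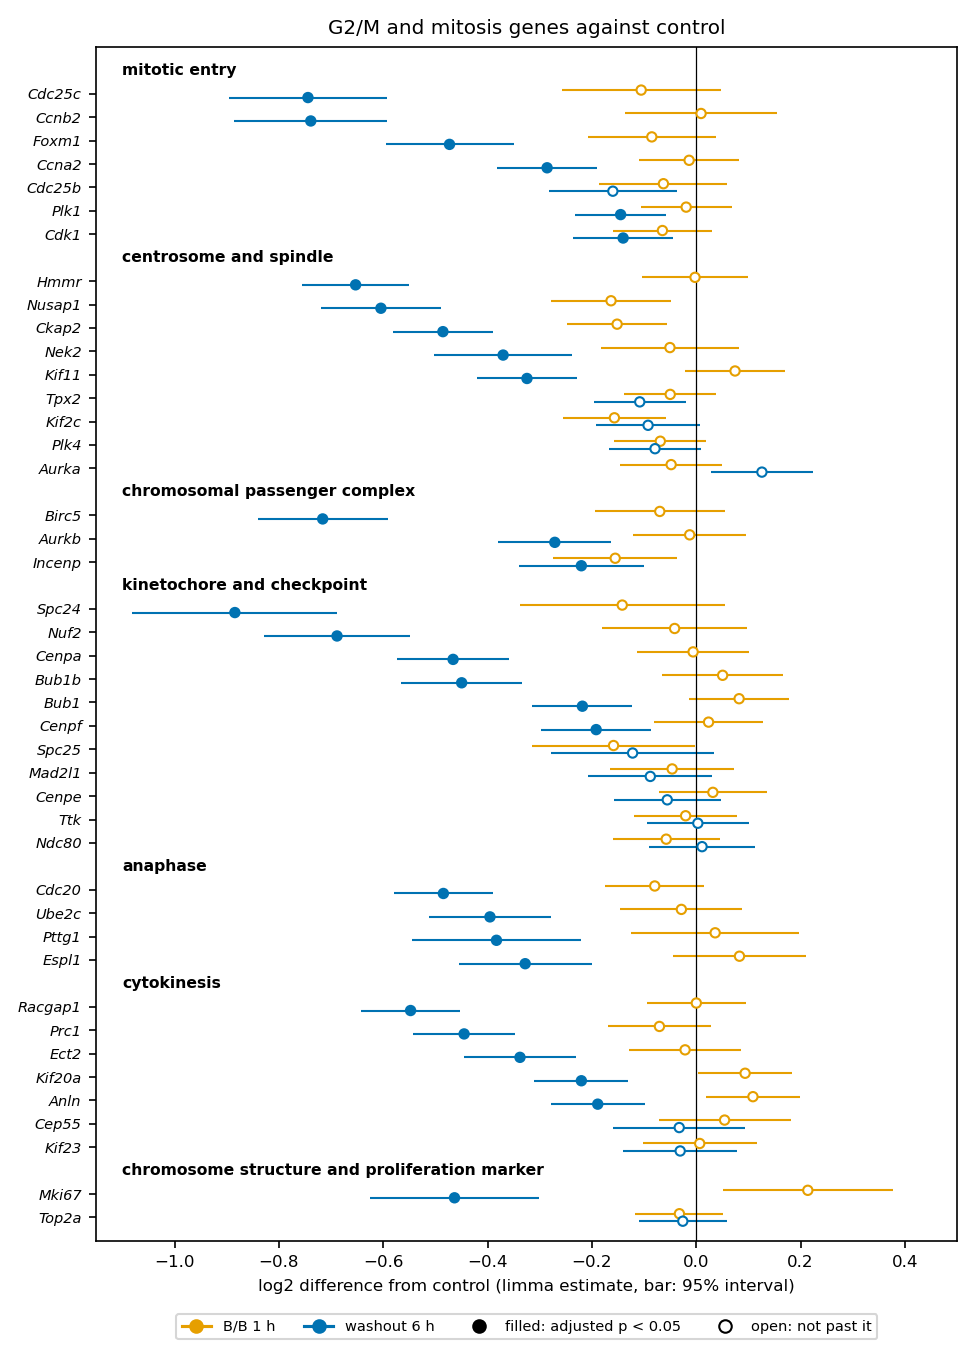
Log2 difference from control of 43 G2/M and mitosis genes, grouped by role, at B/B 1 h (orange) and after 6 h of washout (blue), as limma estimates with 95% intervals from 3 arrays per group. Filled points passed the adjusted p threshold of 0.05, as 30 washout points and no B/B 1 h point did.

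Genes of mitotic entry fell in 6 of 7 cases. Cdc25c, a phosphatase that activates CDK1 at the G2/M border, read 7.88, 7.89 and 7.84 in control, 7.65, 7.84 and 7.80 at 1 h and 7.02, 7.11 and 7.25 after washout. Ccnb2, a B-type cyclin that partners CDK1, read 10.02, 9.89 and 10.03 in control, 9.95, 10.01 and 10.01 at 1 h and 9.11, 9.34 and 9.27 after washout. For both genes the washout arrays lay below all other arrays, and the 1 h arrays of Ccnb2 lay within the control range. Cdc25c fell by 0.74 ± 0.068 and Ccnb2 by 0.74 ± 0.065 (log2, SE, n = 3 per group; limma adjusted p 3.3e-05 and 2.8e-05). Foxm1, the transcription factor that drives many of these genes, fell by 0.47 and Ccna2, the cyclin of S phase and early mitosis, by 0.29 (log2). The smallest falls of this group were those of 2 kinase genes. Plk1, which triggers mitotic entry and centrosome maturation, fell by 0.14 and Cdk1, the master mitotic kinase, by 0.14 (log2). The Cdk1 call was lost without any 1 control array, without washout replicate 2 or 3, and with quantile normalization (limma adjusted p 0.0354; 0.00146 to 0.11 over its alternatives). The Plk1 call was lost without control replicate 1 or 2 or washout replicate 1 (limma adjusted p 0.0203; 4.9e-04 to 0.0741). Cdc25b, a sister phosphatase that acts at the centrosome, differed by -0.16 (log2; limma adjusted p 0.0592).

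Of 9 centrosome and spindle genes, 5 fell. Hmmr, a spindle-assembly protein also known as the hyaluronan-mediated motility receptor, read 8.62, 8.63 and 8.72 in control, 8.62, 8.68 and 8.66 at 1 h and 8.03, 7.97 and 8.00 after washout. Nusap1, which bundles spindle microtubules, read 8.80, 8.64 and 8.77 in control, 8.56, 8.55 and 8.62 at 1 h and 8.15, 8.16 and 8.09 after washout. The 1 h arrays of Hmmr lay within the control range, while every 1 h array of Nusap1 lay below every control array without passing the threshold. Against control, washout levels of Hmmr fell by 0.65 ± 0.045 and of Nusap1 by 0.60 ± 0.051 (log2, SE, n = 3 per group; limma adjusted p 6.6e-06 and 2.2e-05). Ckap2, a microtubule stabilizer, Nek2, a kinase that splits the centrosomes, and Kif11, the motor that slides spindle poles apart, fell by 0.49, 0.37 and 0.32 (log2). The centrosome duplication kinase Plk4, the microtubule-depolymerizing kinesin Kif2c and the spindle assembly factor Tpx2 differed by -0.08, -0.09 and -0.11 (log2) and did not pass. Aurka, the centrosomal Aurora kinase that TPX2 activates, had the highest value of the 43, 0.13 (log2; limma adjusted p 0.0605). Its washout arrays, at 9.84, 9.81 and 9.85, lay above control arrays at 9.67, 9.75 and 9.69 and above 1 h arrays at 9.60, 9.68 and 9.69. It passed the threshold against control with quantile normalization, with the lowest 30% of genes left out, with a mean-variance trend and without B/B 1 h replicate 1 (limma adjusted p from 0.0139, against up to 0.199 in its other alternatives).

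The chromosomal passenger complex corrects faulty chromosome attachments and later directs cytokinesis, and all 3 of its measured genes fell. Birc5 (survivin), which docks the complex, read 8.80, 8.83 and 8.92 in control, 8.73, 8.75 and 8.86 at 1 h and 8.07, 8.13 and 8.20 after washout. Aurkb, its kinase, read 10.93, 10.86 and 11.00 in control, 10.95, 10.89 and 10.91 at 1 h and 10.64, 10.63 and 10.71 after washout. In both genes the 1 h and control arrays overlapped and the washout arrays lay below them. Birc5 fell by 0.72 ± 0.055 and Aurkb by 0.27 ± 0.048 (log2, SE, n = 3 per group; limma adjusted p 1.3e-05 and 0.00208). The scaffold gene Incenp fell by 0.22 (log2).

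Kinetochore and checkpoint genes were split, with 6 of 11 lower. Spc24, a subunit of the NDC80 complex that holds microtubule ends, read 7.68, 7.75 and 7.82 in control, 7.40, 7.66 and 7.76 at 1 h and 6.80, 6.84 and 6.94 after washout. Nuf2, a second subunit, read 9.27, 9.20 and 9.40 in control, 9.23, 9.23 and 9.29 at 1 h and 8.56, 8.70 and 8.55 after washout. The washout arrays of both lay below all other arrays, and B/B 1 h replicate 1 was the lowest 1 h array of Spc24. Spc24 fell by 0.88 ± 0.087 and Nuf2 by 0.69 ± 0.062 (log2, SE, n = 3 per group; limma adjusted p 5.4e-05 and 3.1e-05). Cenpa, the centromeric histone H3 variant, and the checkpoint kinase genes Bub1b and Bub1 fell by 0.47, 0.45 and 0.22, and Cenpf, a fibrous corona protein gene, by 0.19 (log2). The 2 other NDC80 complex genes did not pass: Ndc80 differed by 0.01 and Spc25 by -0.12 (log2), with 95% intervals of -0.09 to 0.11 and -0.28 to 0.03. Mad2l1, which inhibits CDC20 until chromosomes are attached, differed by -0.09, the kinetochore motor gene Cenpe by -0.06 and the checkpoint kinase gene Ttk by 0.00 (log2).

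All 4 genes of the step that starts anaphase fell. Cdc20, the activator of the anaphase-promoting complex, read 10.96, 10.95 and 10.97 in control, 10.85, 10.89 and 10.91 at 1 h and 10.45, 10.44 and 10.54 after washout. Ube2c, its ubiquitin-conjugating enzyme, read 10.55, 10.42 and 10.37 in control, 10.38, 10.44 and 10.44 at 1 h and 10.07, 10.06 and 10.04 after washout. The washout arrays were the lowest 3 of 9 for each. Cdc20 fell by 0.48 ± 0.042 and Ube2c by 0.40 ± 0.052 (log2, SE, n = 3 per group; limma adjusted p 2.7e-05 and 3.3e-04). Pttg1 (securin), which restrains separase, fell by 0.38 and Espl1, the separase that cuts cohesin, by 0.33 (log2).

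Cytokinesis genes fell in 5 of 7 cases. Racgap1, a subunit of the centralspindlin complex, read 10.70, 10.75 and 10.79 in control, 10.72, 10.78 and 10.74 at 1 h and 10.18, 10.23 and 10.18 after washout. Prc1, which bundles the microtubules of the central spindle, read 10.30, 10.32 and 10.35 in control, 10.32, 10.22 and 10.21 at 1 h and 9.87, 9.89 and 9.88 after washout. The washout arrays of either gene lay below all others. Racgap1 fell by 0.55 ± 0.042 and Prc1 by 0.44 ± 0.044 (log2, SE, n = 3 per group; limma adjusted p 1.3e-05 and 5.3e-05). Ect2, which acts at the cleavage furrow, the midzone motor gene Kif20a and the furrow scaffold gene Anln fell by 0.34, 0.22 and 0.19 (log2). Kif23, the motor partner of RACGAP1, and Cep55, which recruits the ESCRT machinery to the midbody for abscission, differed by -0.03 and -0.03 (log2).

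Of the chromosome structure and marker genes, Mki67 fell and Top2a, the topoisomerase that untangles sister chromatids, differed by -0.03 (log2). Mki67, the Ki-67 proliferation antigen that coats mitotic chromosomes, read 10.00, 10.01 and 10.00 in control, 10.28, 10.20 and 10.17 at 1 h and 9.52, 9.71 and 9.39 after washout. Its 3 groups did not overlap, with the 1 h arrays above control and the washout arrays below. Against control the washout level fell by 0.46 ± 0.072 (log2, SE, n = 3 per group; limma adjusted p 9.4e-04).

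Some genes whose products work in 1 complex lay far apart. For 3 pairs chosen because 1 gene fell and its partner did not pass, the difference between washout and control in the log2 ratio of the pair is a description and carries no test. It was -0.70 ± 0.043 for Nuf2 over Ndc80, -0.76 ± 0.045 for Spc24 over Spc25 and -0.52 ± 0.048 for Racgap1 over Kif23 (log2, SE, n = 3 per group).

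**Figure D3:**
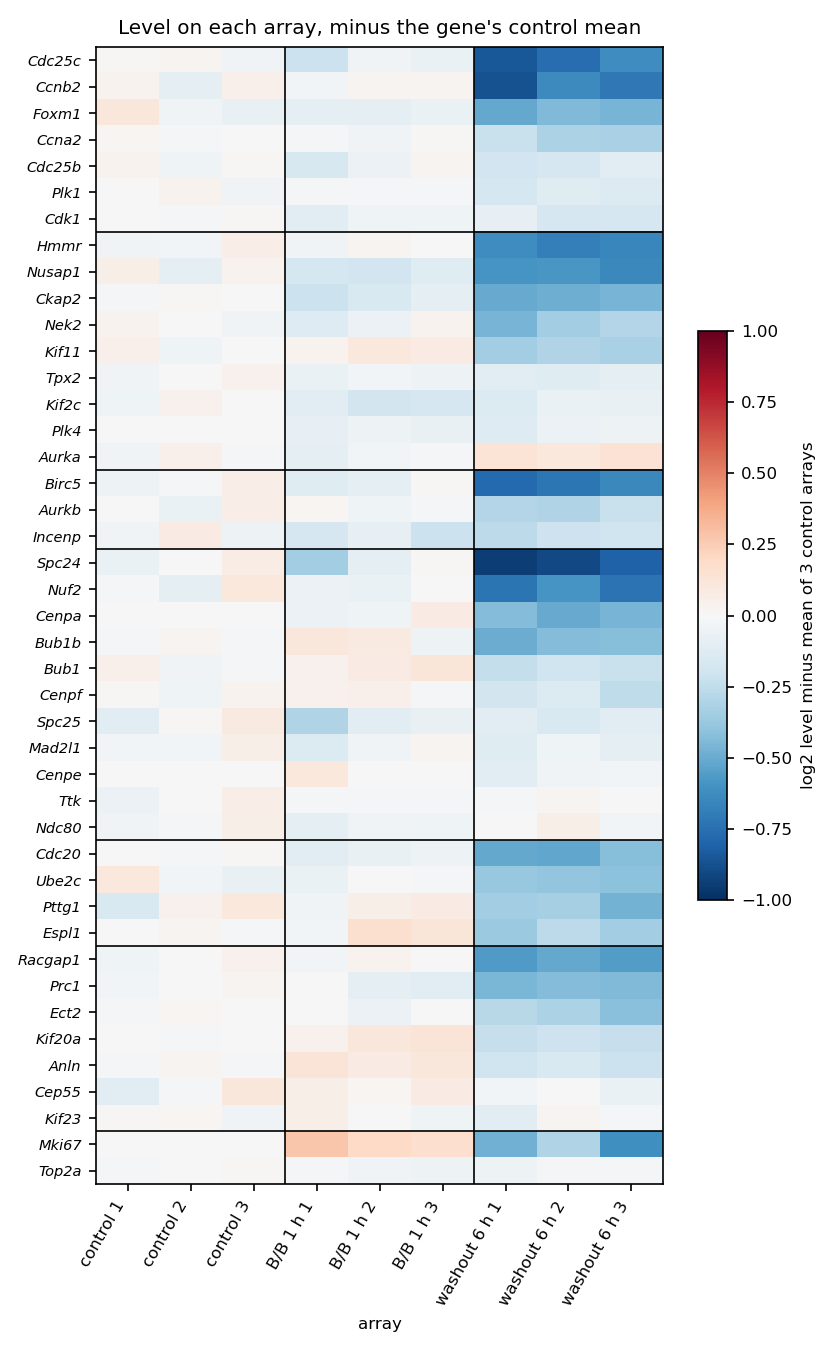
Log2 level of each of 43 members (rows, in role groups) on each of 9 arrays (columns), minus the mean of that gene's 3 control arrays. The blue block on the right is the washout group, in which 39 to 42 of 43 members lay below the control mean on each array.

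At 1 h no member passed the threshold in either direction (limma, 0 of 43), against 1.01% of all genes higher and 1.88% lower, 2.89% in all. At unadjusted p under 0.05 in limma, 3 of 43 members were higher and 5 lower. So were 1809 and 2287 of all 22180 genes, and 445 and 1412 of the 7021. With a mean-variance trend in limma 1 higher and 2 lower passed, Anln, Kif2c and Ckap2, beside 368 higher and 860 lower of all 22180 genes. With array medians centred 1 lower passed, Kif2c. The median member differed by -0.03 (log2), against 0.00 over all genes and -0.03 over the 7021. With array medians centred it was -0.080, against -0.05 over all genes, and 163 genes rose and 812 fell in place of 224 and 418. The 95% intervals of the 43 differences ran between -0.34, the lower bound of Spc24, and 0.38, the upper bound of Mki67, so that larger changes lay outside them. The groups did not overlap for 8 members that were lower (18.6%) and 3 that were higher, as for 12.3% and 9.0% of all genes. Among the 7021 genes 25.8% were lower in this way, a larger share than among members, and 678 were higher. The 3 higher were Mki67 at 0.21, Anln at 0.11 and Kif20a at 0.09 (log2; limma adjusted p 0.159, 0.193 and 0.251). The lowest adjusted p was 0.0987, shared by Kif2c at -0.16 and Ckap2 at -0.15 (log2).

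The comparison of washout with B/B 1 h set 2 groups of sorted AnnV+ cells against each other. The groups differed in the washout and in a further 6 h, which cannot be told apart. In this comparison 28 members fell and 1 rose of 43, against 12.0% of all genes lower and 16.6% higher. The median member differed by -0.31 (log2). Among the 7021 genes at members' levels 24.5% fell and 33.7% rose. All 28 were among the 30 that fell against control, and the other two were Cdk1 at -0.08 and Incenp at -0.06 (log2). The comparisons share the washout arrays, so this overlap is no independent evidence. Ccnb2 and Spc24 had the largest falls, by 0.75 ± 0.065 and 0.74 ± 0.087 (log2, SE, n = 3 per group; limma adjusted p 2.2e-05 and 1.5e-04). Aurka rose by 0.17 ± 0.043 (log2, SE, n = 3 per group; limma adjusted p 0.0127), the only member called higher in any of the 3 comparisons, and it passed in all 15 alternatives of this comparison. The Plk1 fall, by 0.13 (log2; limma adjusted p 0.0367), was lost in 10 alternatives, namely without control replicate 1, without any 1 array of B/B 1 h or of washout, with quantile normalization, with array medians centred and with only the 2 groups fitted (0.0013 to 0.195 over its alternatives).

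Other genes of mitosis, listed by function beside the 44, were 59 measured genes for condensins, kinesins, kinetochore proteins and regulators. After washout 34 fell and 1 rose against control (57.6% and 1.69%), and the median differed by -0.20 (log2). Of all genes 11.7% fell and 14.5% rose. Of the 7021, whose levels not all of the 59 reach, 27.3% fell and 28.8% rose. Psrc1, a spindle microtubule regulator, fell by 0.89 and the centromere protein genes Cenpm and Cenpw by 0.84 and 0.78, and Cdca3, a trigger of mitotic entry, by 0.74 (log2). The 1 that rose was Ska3, a kinetochore gene chosen after its value was seen, by 0.25 (log2), and it did not pass with array medians centred, or without control replicate 1 or 2, B/B 1 h replicate 3, or washout replicate 1 or 2 (limma adjusted p 0.0359; 0.0165 to 0.123 over its alternatives). At 1 h 1 rose and 1 fell, 1.69% each, near the 1.01% and 1.88% of all genes. Troap, a spindle-associated protein gene, rose by 0.25 and the centromere gene Cenpk fell by 0.33 (log2; limma adjusted p 0.0282 and 0.0243). The Troap call was lost without any 1 control or B/B 1 h array or with array medians centred (0.00449 to 0.0896), and the Cenpk call without any 1 control array, without B/B 1 h replicate 2 or with only the 2 groups fitted (0.0156 to 0.0965). Against B/B 1 h, 30 fell and 3 rose after washout (50.8% and 5.08%), beside 12.0% and 16.6% of all genes. Of the 7021, 24.5% fell and 33.7% rose. Cenpm fell by 0.89 and Kif15, a spindle kinesin, by 0.81, and the 3 that rose, Cenpl, Zwint and Nsl1, chosen after their values were seen, stood at 0.34, 0.18 and 0.25 (log2). The Cenpl call was lost without B/B 1 h replicate 1 or washout replicate 3 and the Zwint call without B/B 1 h replicate 2 or washout replicate 1 (limma adjusted p up to 0.0536 and 0.0562).

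Regulators of the G2/M transition were read at 16 genes. Against control 10 fell and 2 rose after washout, 62.5% and 12.5%, beside 11.7% and 14.5% of all genes. Of the 7021, 27.3% fell and 28.8% rose. Wee1, the kinase that holds CDK1 inactive, read 9.73, 9.82 and 9.86 in control, 9.61, 9.61 and 9.66 at 1 h and 8.83, 8.81 and 8.85 after washout. It fell by 0.97 ± 0.046 (log2, SE, n = 3 per group; limma adjusted p 6.9e-07), and by 0.80 (log2) against B/B 1 h. Cdc25a, a CDK-activating phosphatase gene, fell by 0.36 and Gadd45b, a stress gene, by 1.06 (log2). Btg2, an antiproliferative gene, rose by 1.46 at 1 h, when Gadd45b fell by 0.66, and after washout lay below control, where it fell by 1.31 (log2). The 2 that rose, a share below that of all genes, were Lin37 and Lin52, chosen after their values were seen, at 0.28 and 0.16 (log2). Lin54, also chosen after its values were seen, was among those that fell (limma adjusted p 5.4e-04). Its log2 difference was -0.38 to -0.33 over the main fit and its 15 alternatives, and the call was kept in each. The Lin52 call was lost without any 1 control or washout array, without B/B 1 h replicate 2, with quantile normalization and with array medians centred, which left 1 regulator higher (limma adjusted p 0.0487; 0.015 to 0.155 over its alternatives).

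S-phase genes, the part of the cell cycle most like these, are given for comparison. Of 37 measured, 34 fell and 1 rose against control after washout (91.9% and 2.70%). By the same rule 11.7% and 14.5% of all genes did, and 27.3% and 28.8% of the 7021. The median S-phase gene differed by -0.44 (log2). For the mitotic genes 30 of 43 fell and the median was -0.29, and neither list was tested against the other. Tk1, which makes thymidine monophosphate, fell by 1.33, the DNA methylation factor gene Uhrf1 by 0.81, the clamp loader gene Rfc2 by 0.81 and the primase gene Prim2 by 0.72 (log2). At 1 h 1 of 37 fell (2.70%), beside 1.88% of all genes and 3.92% of the 7021. It was the licensing factor gene Cdt1, which fell by 0.22 (log2; limma adjusted p 0.0466). That call was lost in 9 of its 15 alternatives. Among them were those without any 1 control or B/B 1 h array or without washout replicate 1 or 2 (limma adjusted p up to 0.136). Against B/B 1 h, 29 fell and 1 rose after washout (78.4% and 2.70%), beside 12.0% and 16.6% of all genes and 24.5% and 33.7% of the 7021. A CHR lay in the promoter window of 6 of 31 of these genes (19.4%) and an E2F core in 13 (41.9%), against 75.0% and 2.78% of the 36 members. The NF-Y box lay in 19 of the 31 (61.3%), against 72.2% of the 36 members and 41.1% of all genes. Of 52 further mitosis genes with a promoter, 33 (63.5%) held a CHR, 37 (71.2%) an NF-Y box and 9 (17.3%) an E2F core.

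**Figure D4:**
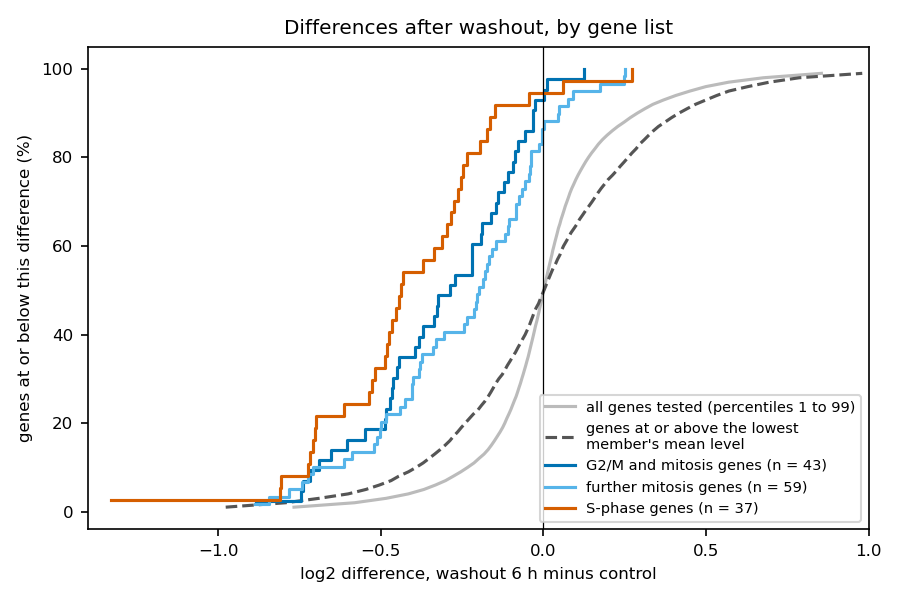
Cumulative share of genes (percent) by log2 difference between washout and control, for 43 G2/M and mitosis genes, 59 further mitosis genes, 37 S-phase genes, all 22180 genes tested and the 7021 genes at or above the lowest member's mean level. The medians of the 3 cell cycle lists are -0.29, -0.20 and -0.44, and those of both backgrounds 0.00.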

How the data were processed

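RNA of 9 samples in 3 groups was read on one-colour Affymetrix arrays. The deposited values are log2 probe set values, and Partek 6.6 was used, with its role unstated, per the submitters' processing notes. The sources used here do not name the method of summarising probe sets or normalizing arrays. The values were used as deposited, with no detection calls and no filter.

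Of 41345 probe sets, 23521 carried 1 symbol, 1814 several and 16010 none. The probe set with the highest mean stood for each of 22180 genes. A gene table of GRCm38.p6 held 23328 of the 1-symbol gene IDs and changed 0 symbols. Comparisons used limma 3.58.1 (R 4.3.3) and 1 model of 3 group means (6 residual degrees of freedom), with Benjamini-Hochberg adjustment over all genes in each comparison and a threshold of 0.05. All of the members are named. Values on every array are given, per role, for up to 2 members with the largest differences past the threshold between washout and control, for the 2 largest in the other comparisons, and for Aurka and Wee1 beyond that rule. Members, lists and rules were chosen with earlier results of these data known. Promoter sequences are those of RefSeq, GRCm38.p6. The fit was tested on simulated data for washout against control (22180 genes, 50 per fold size): 48%, 86%, 100% and 100% were recovered at folds of 1.25, 1.5, 2 and 3. Only those genes were changed, all upward, and 11 unchanged genes were called. In the data 5814 genes passed in this comparison, so the simulated setting differs and its recovery need not hold there. The 1 h comparison was not simulated.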

Additional observations from a re-analysis of the deposited data

Results flagged for a closer look

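In some of the genes named, every B/B 1 h array stood above every control array and every washout array below, so that the groups lay on opposite sides of control. Among members these were Mki67, Anln and Kif20a, with washout minus B/B 1 h differences of -0.68, -0.30 and -0.31 (log2; limma adjusted p 7.9e-05, 3.5e-04 and 2.4e-04). Among the other lists they were Kif15 and Troap of the further mitosis genes, Uhrf1 of the S-phase genes and Btg2 of the regulators, with differences of -0.81, -0.57, -0.85 and -2.78 (log2; limma adjusted p 4.1e-06, 1.6e-05, 3.2e-07 and 3.9e-09). Lin52 showed the opposite order, B/B 1 h below control and washout above, with a difference of 0.30 (log2; limma adjusted p 0.00159). At 1 h only Btg2 and Troap of these 8 had passed the threshold against control. The share of all genes with either pattern was not counted. Taken singly, 9.0% of all genes lay above control in this way at 1 h and 17.8% below it after washout. In the opposite order the shares were 12.3% and 20.2%. Kif15, Uhrf1 and Btg2 were among genes named for large differences between washout and B/B 1 h.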

How the results depend on the processing

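Over 15 alternatives, 28 of the 30 members that fell after washout against control kept that call in every one, and no named gene's called difference changed sign. The count of members lower was 28 to 31 against control and 27 to 28 against B/B 1 h when 1 array was left out. Members higher against control numbered 1 with quantile normalization, with the lowest 30% of genes left out and with a mean-variance trend (Aurka), and 0 to 1 with 1 array left out. The median member difference was -0.26 with quantile normalization after washout against control, and with array medians centred it was -0.080 at 1 h and -0.28 for washout against B/B 1 h.

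At 1 h the members called were 0 in the main analysis, and with a mean-variance trend 1 higher and 2 lower, and with array medians centred 1 lower. Further mitosis genes higher at 1 h numbered 2 with quantile normalization or a mean-variance trend, 0 with array medians centred and 0 to 1 with 1 array left out, and those lower numbered 3 with a trend, 0 with only the 2 groups compared and 0 to 1 with 1 array left out. Regulators lower at 1 h numbered 5 with a trend and 2 with array medians centred or the lowest 30% left out. Over all genes at 1 h, 224 rose and 418 fell in the main analysis, 368 and 860 with a trend, and 163 and 812 with array medians centred. These counts were 254 and 316 with quantile normalization, 137 and 222 with only the 2 groups compared, and 302 and 650 of 15526 with the lowest 30% left out. After washout against control, further genes higher numbered 0 with array medians centred, 2 with the lowest 30% left out or only the 2 groups compared, and 0 to 2 with 1 array left out. Regulators higher there numbered 1 with quantile normalization or array medians centred and 1 to 2 with 1 array left out. Of all genes, 3208 rose there in the main analysis, 3001 with quantile normalization and 2795 with array medians centred. With only the 2 groups compared 3152 rose, and with the lowest 30% left out 3348 of 15526. The cause of these shifts was not tested. No paired analysis was possible because the labels give no replicate numbers, and those used here only name arrays in accession order. The 3 arrays per group limit the precision.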
